A study of Mus musculus with 4 samples.

Results

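The genes described here encode the machinery that starts autophagy and grows its membrane, in a map of the transcription factor Deaf1 made by chromatin immunoprecipitation and sequencing (ChIP-seq) in the mouse myoblast line C2C12, whose cells are precursors of muscle fibres. The 10 genes were taken from the pathway by name, with earlier results of these data known. They are Ulk1, Ulk2, Atg13, Rb1cc1 and Atg101 of the ULK kinase complex, and Atg2a, Atg2b, Atg9a, Wdr45 and Wdr45b of the lipid transfer system. Their relatives Ulk3, Ulk4, Atg9b, Wipi1 and Wipi2 are described with the other genes of the pathway. The listed genes are 10 of 21887 protein-coding genes on the assembled chromosomes. Every peak that overlapped a gene's annotated span plus 5 kb on each side by at least 1 bp was taken, which gave 3 of 1860 peaks in ChIP replicate 1, 4 of 3126 peaks in ChIP replicate 2, and 3 of the 1550 regions in the authors' combined list of both replicates. The 4 libraries all came from C2C12 cells in the same medium, fixed with 1% formaldehyde for 10 min: 2 were precipitated with an antibody to Deaf1 and 2 were inputs without antibody. No treatment, genotype or time point was varied, the labels do not say whether the replicates were separate cultures, and occupancy says nothing by itself about expression. The peak lists carry no expression values, so the myoblast label was not checked against marker genes. The inputs enter only as the background of each peak.

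Autophagy encloses part of the cytoplasm in a new double membrane, the phagophore, and delivers it to the lysosome. The kinases ULK1 and ULK2 act in a complex with the adaptor ATG13, the scaffold RB1CC1 and the small subunit ATG101, which is held off by mTORC1 when nutrients are plentiful. ATG9A, a scramblase in small vesicles, seeds the membrane. The rod-shaped proteins ATG2A and ATG2B carry lipids into it from the endoplasmic reticulum, and WDR45 and WDR45B, of the WIPI family of phosphoinositide-binding propellers, work with the ATG2 proteins. In muscle, autophagy clears damaged organelles and is needed by muscle stem cells. Deaf1 binds DNA through a SAND domain, which prefers sites that hold TTCG.

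Deaf1 peaks were found at 4 of the 10 genes, and in both libraries at 3 of them. Atg2b, Wdr45b and Atg101 had a peak in each replicate, and Atg13 had one in replicate 2 alone. No peak lay within 5 kb of Ulk1, Ulk2, Rb1cc1, Atg2a, Atg9a or Wdr45 in either list. The 3 genes with a combined region compare with 9.03% of all protein-coding genes under the same rule. The 3 genes with a replicate 1 peak compare with 9.71% of all genes, and the 4 with a replicate 2 peak with 14.6%. These shares are the background against which so short a list is read, and the list is a description without a test.

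The sequences at both loci with a peak and a partner gene are shown first, since each peak there lies at the start of a second gene on the other strand. They come from RefSeq promoter windows on GRCm38.p6, which reach from 250 bases before to 50 bases after a gene's start and exist here for 8 of the 10 genes. Capitals mark TTCG, or CGAA where it reads on the other strand. The first run is the whole replicate 2 peak between Atg2b and Gskip, at chr12:105685225-105685426. The second, at chr2:91710773-91710893, begins upstream of the replicate 2 peak between Atg13 and Harbi1, whose own bases start at 91710798, so that the nearest matches outside the peak are seen. Both are on the plus strand, 5′ to 3′.
Atg2b-Gskip: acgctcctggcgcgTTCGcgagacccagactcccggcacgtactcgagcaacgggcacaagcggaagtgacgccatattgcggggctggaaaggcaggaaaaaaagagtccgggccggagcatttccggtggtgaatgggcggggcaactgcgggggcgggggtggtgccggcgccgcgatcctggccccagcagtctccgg
Atg13-Harbi1: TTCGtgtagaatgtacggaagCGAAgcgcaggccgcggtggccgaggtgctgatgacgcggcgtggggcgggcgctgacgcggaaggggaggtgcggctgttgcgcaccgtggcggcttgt
The replicate 2 peak at Atg2b-Gskip held 1 match, 92 bp from its summit and at the edge of the peak. The replicate 1 peak there began at 105685240, inside that match, and so did not hold all of it. The Atg13-Harbi1 peak held none, and the last base of the nearest match lay 1 bp before the first base of the peak. The promoter of Atg101 had 2 matches, 117 and 290 bp from the summit of its peak and outside it. The window reaches only the last 5 bases of that peak, so the rest of the bases under it, and all those under the Wdr45b peak, were not analysed here.

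Atg2b, the lipid transfer protein gene on chromosome 12 (105613539 to 105685297), had the strongest occupancy of the 10 genes in both libraries. The summit was covered by 31 ChIP fragments in replicate 1 (95% exact Poisson interval 21.1 to 44.0) over a background of 3.51 fragments. In replicate 2 it was covered by 52 fragments (38.8 to 68.2) over 2.90. The fold enrichment that the authors' peak caller gave was 7.09 in replicate 1 and 13.6 in replicate 2, a mean of 10.3 ± 4.6 (SD, n = 2). Among all peaks of each library it ranked 891st of 1860 and 201st of 3126 by fold enrichment. The summits of both replicates lay 4 bp apart, 33 and 37 bp outside the Atg2b span. Both were closer to Gskip, which encodes a small protein that binds the kinase GSK3: its nearer end was 22 and 18 bp away. Atg2b and Gskip are transcribed away from each other from starts 111 bp apart, and the peak covered both starts, so it cannot be given to either gene alone.

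Wdr45b, a WIPI gene on chromosome 11 (121327203 to 121354447), carried a peak on its end itself. The peak spanned 121354371 to 121354512 in replicate 1 and 121354362 to 121354512 in replicate 2, with summits 17 and 21 bp inside the annotated span. There were 28 fragments at the summit in replicate 1 (18.6 to 40.5) over a background of 3.51, and 32 in replicate 2 (21.9 to 45.2) over 2.64. The fold enrichment was 6.42 and 9.07, a mean of 7.75 ± 1.9 (SD, n = 2), close to the median of 7.88 over all combined regions. The next gene, Rab40b, had its nearer end 1691 and 1695 bp from the summits, so Wdr45b was the only gene with an end within 1 kb.

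Atg101, the small ULK complex subunit gene on chromosome 15 (101284301 to 101290947), had the lowest fold enrichment of the 3 genes seen in both libraries. Its peak lay upstream of the gene, with summits 330 and 328 bp before the annotated start, and did not reach the span: it ended 282 bp from it in replicate 1 and 246 bp in replicate 2. There were 27 fragments at the summit in replicate 1 (17.8 to 39.3) and 31 in replicate 2 (21.1 to 44.0), as counts not scaled between the libraries. The ratio of replicate 2 to replicate 1 was 1.15, where the median over all combined regions was 1.31. The background differed more, at 5.27 fragments in replicate 1 and 3.06 in replicate 2, or 2.93 and 1.47 times the lowest background of each library. Since fold enrichment is fragments over background, each plus 1, it came out at 4.47 in replicate 1 and 7.87 in replicate 2, a mean of 6.17 ± 2.4 (SD, n = 2). No gene end was closer than that of Atg101, and the nearest other was that of Nr4a1, 9176 and 9178 bp away.

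Atg13, the ULK complex adaptor gene on chromosome 2 (91674612 to 91710597), had a peak in replicate 2 only, from 91710798 to 91710893. Its summit held 22 fragments (13.8 to 33.3) over a background of 2.90, a fold enrichment of 5.90, which ranked 1769th of 3126. The summit lay 275 bp upstream of the start of Atg13 and 15 bp inside Harbi1, a gene derived from a transposase, which is read the other way from a start 260 bp from that of Atg13. In replicate 1 the nearest peak to Atg13 was 24.4 kb from its span, at an end of Arhgap1. A list of peaks gives no coverage where no peak was called, so occupancy under the caller's threshold in replicate 1 is not seen. The 22 fragments divided by the median ratio between the libraries (1.31) are 16.8, and 371 of the replicate 1 peaks (19.9%) had no more than that. Of the 610 replicate 2 peaks within 2 fragments of the Atg13 height, 248 (40.7%) overlapped a replicate 1 peak.

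**Figure D1:**
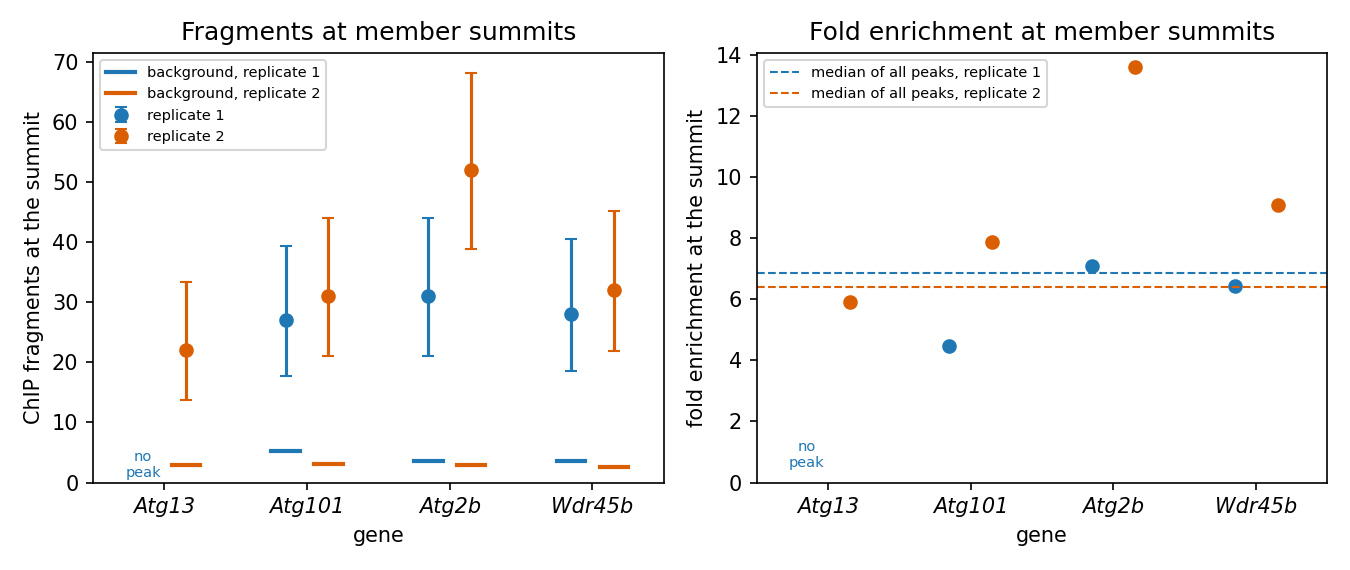
ChIP fragments at the summit with 95% exact Poisson intervals and the local background as short lines (left), and fold enrichment with the median of all peaks of each library as dashed lines (right), for the 4 genes with a peak. Fragments stand above background at each summit, which the peak call required. The replicate 2 value for Atg2b (52 fragments, fold 13.6) is the highest, and Atg13 has no peak in replicate 1.

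Of the 4 replicate 2 peaks at these genes, 3 overlapped a replicate 1 peak, where 50.4% of all replicate 2 peaks did. The fragments at the 3 shared summits were compared between libraries with a two-sided exact binomial test over all 1550 combined regions, against the median ratio of 1.31 (replicate 2 to replicate 1). The ratio was 1.68 at Atg2b (95% exact interval 1.06 to 2.71; unadjusted binomial p = 0.32). It was 1.15 at Atg101 (0.663 to 2.0; binomial p = 0.69) and 1.14 at Wdr45b (0.667 to 1.97; binomial p = 0.61). Adjusted over all regions by the Benjamini-Hochberg method, the exact binomial p was 1.0 for each. None of the 3 was thus called different between libraries by this test, and neither was any of the 1550 regions (0% called). An unadjusted binomial p under 0.05 was found at 5 regions, or 0.323%. The test compares 2 libraries, and the intervals at Atg101 and Wdr45b reached from under 1 to about 2, so differences of that size were not detectable at this depth. The share of 0.323% is low for independent Poisson counts, which the test assumes. All 1550 regions were called in both libraries, and the part of that selection in the small spread was not tested. The independence of the 2 libraries was not tested either, so the lack of calls cannot be read as agreement between independent replicates.

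**Figure D2:**
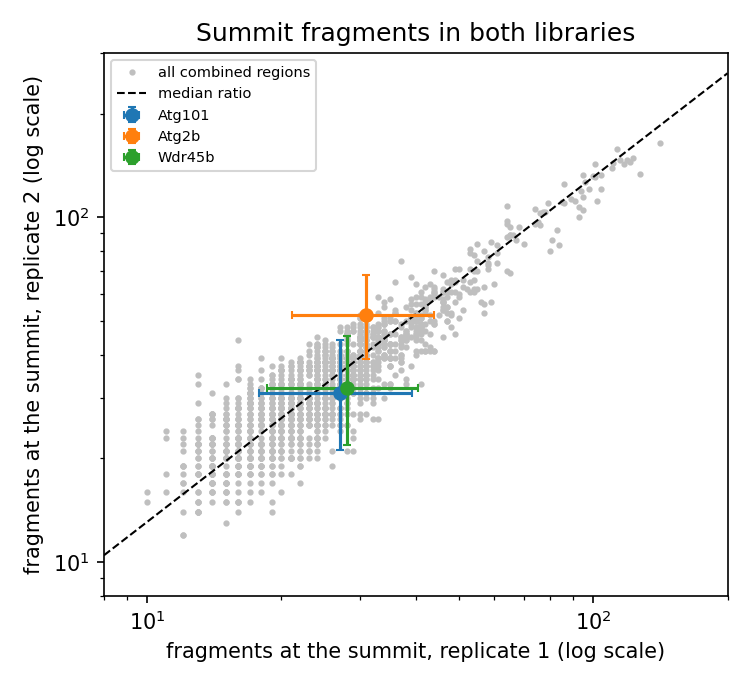
Fragments at the summit in replicate 1 (x) and replicate 2 (y), both on log scales, for all 1550 combined regions (grey) and the 3 regions at Atg101, Atg2b and Wdr45b with 95% exact Poisson intervals. The dashed line is the median ratio of 1.31; Atg2b (31 and 52 fragments) lies above it and Atg101 and Wdr45b just below it, all within the cloud.

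The combined list ranks regions by the irreproducible discovery rate (IDR), a measure that is lower where ranks repeat better between replicates. Its value was 0.029 at Atg2b and 0.032 at Wdr45b, both under 0.05, as for 39.2% of all regions. At Atg101 it was 0.16, above the median of 0.101 over all regions. By mean fold enrichment the Atg2b region ranked 353rd of 1550, the Wdr45b region 808th and the Atg101 region 1205th. The order Atg2b, Wdr45b, Atg101 was the same by fold enrichment in each library, but the means of neighbours in it differed by less than the larger of their SDs. The Atg2b region spanned 202 bp, the Wdr45b region 151 bp and the Atg101 region 136 bp, against a median of 196 bp over the combined list.

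All 4 peaks lay within 1 kb of an end of their gene, a position that the window did not require. It is usual in these data: of the 1977 genes with a combined region in the 5 kb window, 1529 had one within 1 kb of a gene end. The Atg2b summits lay between a pair of starts on opposite strands, the Atg13 summit just past the second start of such a pair, and those of Wdr45b and Atg101 at or near a single annotated end. Such a pair, within 1 kb, was found for 3 of the 8 genes with a start in the promoter table, the third being Atg9a with Ankzf1, a gene of ribosome quality control, at 150 bp and without a peak. Over the 17492 genes with a start in that table, 9.40% had such a partner. A combined region within 1 kb of a gene end was present at 23.9% of genes with a partner and at 5.34% of those without. A region between 2 starts is counted for both genes.

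**Figure D3:**
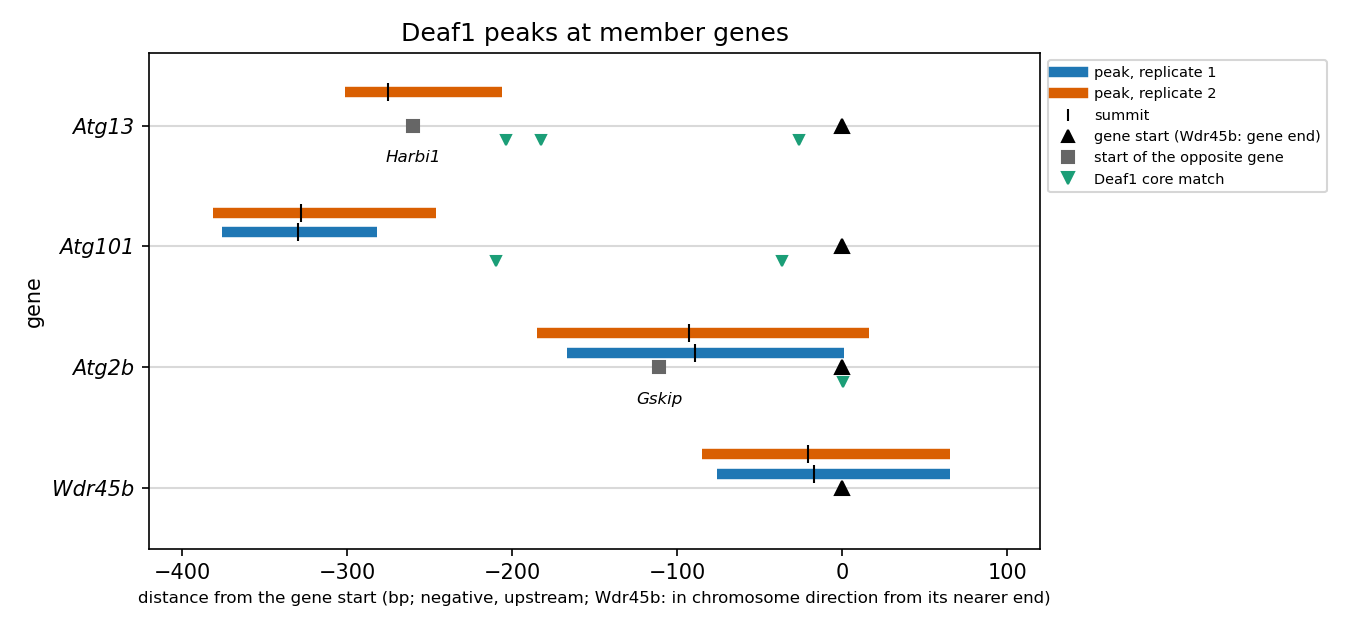
Position of each peak (bars), its summit (ticks), the gene's start (black triangles), the start of the gene on the other strand (grey squares) and TTCG matches (green triangles) for Atg13, Atg101, Atg2b and Wdr45b, in bp from the gene's start, or from the nearer gene end for Wdr45b, which has no promoter window and so no matches drawn. Summits lie 275 to 330 bp upstream at Atg13 and Atg101, at -89 and -93 bp at Atg2b, and on the end of Wdr45b.

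The kinase genes had no peak in their windows. Ulk1 (chromosome 5, 110784489 to 110810120) lay 131 kb from the nearest peak in both libraries, which was at an end of Ddx51. Ulk2 (chromosome 11, 61775598 to 61855334), the longest of the 10 spans at 79737 bp, lay 1321 kb from the nearest replicate 1 peak, at Drg2, and 74.8 kb from the nearest replicate 2 peak, at Akap10. Rb1cc1 (chromosome 1, 6214634 to 6276375), the scaffold of the complex, had its nearest peak 1122 kb away in both libraries. These 3 spans ran from 25632 to 79737 bp. Those of the genes with a peak were 71759 bp at Atg2b, 35986 bp at Atg13, 27245 bp at Wdr45b and 6647 bp at Atg101. Of the 10 spans, 7 were over 20 kb, where the median over all protein-coding genes was 17.2 kb. The part of gene length in the counts was not tested.

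In the lipid transfer system, each gene with a region had a relative without one. Atg2a (chromosome 19, 6241478 to 6262304), the paralogue of Atg2b, was 156 kb from the nearest peak in both libraries, at Cdca5. Wdr45 (chromosome X, 7721987 to 7728201), the relative of Wdr45b, was 30461 kb from the nearest replicate 1 peak and 113 kb from the nearest in replicate 2. Peaks on the X chromosome were few, at 18 in replicate 1 and 50 in replicate 2, and 1.55% of its protein-coding genes had a combined region under the same rule. Atg9a (chromosome 1, 75180861 to 75192010), the scramblase gene, was 18.7 kb from the nearest peak in both libraries, at an end of the kinase gene Stk16.

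**Figure D4:**
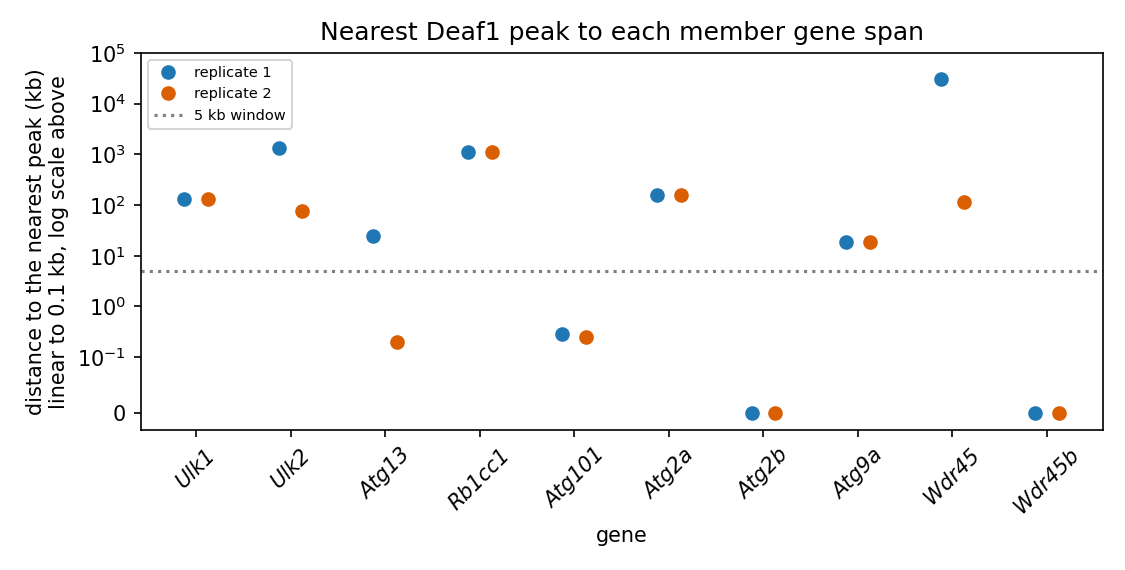
Distance in kb from each gene span to the nearest peak in replicate 1 (blue) and replicate 2 (orange), on a scale that is linear to 0.1 kb and logarithmic above, with the 5 kb window as a dotted line. Atg2b and Wdr45b are at 0 and Atg101 under 0.3 kb in both libraries, Atg13 is under the line in replicate 2 only, and the other 6 genes are at 18.7 kb or more.

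TTCG was not confined to the promoters with a peak. Of the 8 promoter windows, 6 held at least 1 match on either strand, where 49.1% of the 21263 windows of protein-coding genes did. Atg9a had 4 matches, Atg2a and Atg13 had 3 each, Atg101 had 2, Atg2b and Ulk1 had 1 each, and Ulk2 and Wdr45 had none. The stretches with the matches of Atg2a (plus strand, chr19:6241576-6241710) and Atg9a (minus strand, chr1:75192161-75192216) are shown for contrast with the sequences under the peaks, since neither gene had a peak within 5 kb. They were picked after the matches were counted. In Atg9a the first TTCG and CGAA overlap by 2 bases.
Atg2a: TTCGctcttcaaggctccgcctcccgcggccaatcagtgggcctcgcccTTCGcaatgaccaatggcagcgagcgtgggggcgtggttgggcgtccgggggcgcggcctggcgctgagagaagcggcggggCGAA
Atg9a: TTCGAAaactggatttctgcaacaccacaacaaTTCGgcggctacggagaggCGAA
The printed stretch of Atg9a, 56 bp cut from its first to its last match, held 4 matches, including the overlapping pair. The Atg2b-Gskip peak of 202 bp held 1, so these counts come from unlike stretches. Over all genes with a window, 69.9% of those with a combined region within 1 kb of a gene end and 47.4% of the others had a match. Base composition moved with this: the median number of CpG dinucleotides per window, 1 of which every TTCG holds, was 22 and 12 in these 2 sets, and median GC content was 60.3% and 55.7%. Its part in the difference was not tested. Among the 10 genes, GC content of the window was 67.3% at Atg2b, 62.0% at Atg101 and 49.0% at Atg13, against 48.0% to 74.7% at the 5 genes without a peak. A match of 4 bases is a description and not a binding site.

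The other genes of the pathway were taken as a list of 43, from the class III PI3K complex, the conjugation enzymes, the ATG8 family, receptors, scramblases, relatives of the 10 genes and kinases upstream of ULK1. A combined region lay in the windows of 14 of them (32.6%), beside 9.03% of all protein-coding genes, and 11 of the 14 remained when regions closer to an end of another protein-coding gene were left out, beside 6.12% of all genes under that rule. The mean fold enrichment of their strongest regions lay between 3.54 and 12.4 (median 7.78), and the 3 regions at Atg101, Wdr45b and Atg2b lay inside that range. Of the close relatives Ulk3, Ulk4, Atg9b, Wipi1 and Wipi2, none had a combined region. Ulk4 had a replicate 2 peak of 17 fragments (9.90 to 27.2), with a fold enrichment of 3.70 and 8668 bp from its nearer end.

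Both further scramblase genes, whose proteins act in the endoplasmic reticulum, had a region. At Vmp1 fold enrichment was 9.90 in replicate 1 and 8.91 in replicate 2, with the summit 25 bp from a gene end. At Tmem41b it was 10.7 and 12.6. Upstream of ULK1, the list held 8 genes for subunits of the AMPK and mTORC1 kinase complexes, and 4 of them had a region. The share of all protein-coding genes under the same rule was 9.03%. Prkaa2, Prkab2, Rptor and Mlst8 had none, and the 8 were chosen with earlier results of these data known. Fold enrichment at Prkag1, an AMPK regulatory subunit gene, was 11.8 and 13.1. Mtor, the kinase that restrains ULK1, had 8.53 and 13.6. Prkab1 had 11.8 and 4.56, and Prkaa1 had 4.65 and 8.71 at a summit 3807 bp from its nearer end. In the PI3K complex, the region at Becn1 had 4.68 and 6.0, and Pik3c3 had 9.30 and 13.3 inside its span. The others with a region were Atg5, Atg12 and Atg16l1 among the conjugation genes, Map1lc3b and Gabarap in the ATG8 family, and the receptor gene Nbr1.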

How the data were processed

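The members and gene lists were chosen with earlier results of these data known, and no list was tested. The submitters' processing notes name FastQC 0.11.8, BWA 0.7.17-r1198, MACS2 2.1.2 and the build mm10; filters and duplicate removal are not given in the sources used here. The labels' protocols describe both formaldehyde fixation and native ChIP-seq, a conflict that could not be settled. The fold enrichment, the ratio of ChIP signal over the local background, was deposited by the authors, as were the −log10 p and q values. The deposited IDR score of the combined list is 1 value for the pair of libraries; its 6 columns of positions and values for single libraries were not used. The mapping of the score to an IDR was read from the deposited −log10 IDR.

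Fragments and background at each summit were recovered from fold = (fragments + 1)/(background + 1) and the Poisson p. The fragment number reproduced −log10 p within 0.0001 at 100% of peaks. Fold and p recomputed from these recovered numbers returned the same fragment number at 100% of 4986 peaks, which checks the arithmetic only. The lowest background was 1.80 fragments in replicate 1 and 2.09 in replicate 2, and the median summit had 22 and 23. Intervals cover counting error only. Each region took its strongest peak per replicate. In simulated regions changed 3-fold, the exact binomial test called 83.0% of 200 at an adjusted p of 0.05. These were independent Poisson counts around the highest replicate 1 summit counts, without the selection for a call in both libraries. The share therefore does not give the power among the combined regions.

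Gene spans came from RefSeq GRCm38.p6, which is mm10, and have no strand; starts and strands came from the promoter table. Coordinates are 1-based. All 10 genes were named whatever their values, with each neighbour closer to a summit, those of the 5 close relatives that had a peak (Ulk4) and the other pathway genes with a region. Alternatives covered the IDR, the window, attribution to the nearest gene, the q threshold, the overlap, the expected ratio, the motif and leaving out a replicate. Analyses used Python 3.11.15, pandas 2.3.3 and SciPy 1.17.1.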

Additional observations from a re-analysis of the deposited data

How the results depend on the processing

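The 3 genes with a combined region stayed within 1.5 times that number under each window, the summit rule, attribution to the nearest gene and the IDR of at most 0.05, which left Atg2b and Wdr45b (4.09% of all genes); with no flank Atg101 dropped out, and with attribution Atg2b. At an IDR of at most 0.01 there were 0, where 0.53% of all genes had a region. At an IDR of at most 0.05, 6 of the 43 other autophagy genes had one, beside the same 4.09%. Without replicate 1 or replicate 2, the genes with a peak numbered 3 to 4 among the 10, and 14 to 17 among the other autophagy genes. With TTCGG in place of TTCG, 3 of the 8 promoters had a match, beside 22.0% of all promoter windows. The genes with a peak in each library, the shared peaks and the replicate differences kept their numbers under each alternative run for them. No paired analysis was possible because no file of the input libraries was analysed here and the ChIP libraries form 1 group. Counting error at 22 to 52 fragments limits the comparison of single summits.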

Other observations

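At the Atg2b-Gskip and Atg13-Harbi1 peaks, other short sequences lay closer to the summits than TTCG did. In the Atg101 window, which misses most of its peak, the nearest GGAAG lay farther from the summit (192 bp) than the nearest TTCG (117 bp). GGAAG and TGACG were chosen after the printed sequences had been read, so the values are a description. The Atg2b-Gskip peak held GGAAG, the core that ETS factors bind, directly followed by TGACG, the core of cyclic AMP response elements, 43 and 38 bp from the summit. The Atg13-Harbi1 peak held TGACG 15 and 37 bp from the summit and GGAAG 9 bp from it. Across the series, 873 replicate 2 peaks lay wholly inside a promoter window. GGAAG or its reverse complement was in 85.0% of them, against 45.9% at the same positions of all promoter windows. TGACG was in 35.6% against 14.4%, and TTCG in 43.6% against 27.5%. The positions were not matched on base composition, whose part was not tested. Over whole windows of protein-coding genes, 72.4% held GGAAG and 23.6% held TGACG.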
